A study of Mus musculus with 11 samples.

Results

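The genes described here are 10 genes of the lung alveolus, found by matching the Ensembl identifiers of the deposited expression file to the symbols Sftpa1, Sftpb, Sftpc, Sftpd, Lamp3, Abca3, Ager, Hopx, Aqp5 and Pdpn. All 10 were among the 21899 genes listed, and all 10 passed the filter on low values that left 14004 genes for testing. The values are FPKM, fragments scaled to exon length and to the fragment total of the library, for RNA of airway tissue bluntly dissected from wild-type male BALB/c mice. In the PBS group (3 libraries) the mice were not sensitized and received only PBS. Mice of the OVA/LPS/Vehicle group (4 libraries) were sensitized with ovalbumin (OVA) and alum, challenged with OVA through the nose, given lipopolysaccharide (LPS) through the nose, and treated with vehicle. Mice of the OVA/LPS/GGsTop group (4 libraries) went through the same sensitization, challenge and LPS and were then treated in the trachea with GGsTop, which blocks γ-glutamyl transferase, an enzyme that breaks down glutathione outside cells. The numbers 12, 34, 56 and 78 name the OVA/LPS/Vehicle libraries, and no source says whether each is a pool of mice. Nothing in the labels says that libraries came from separate mice, so the p-values measure the spread between libraries, which may be technical in part.

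Gas exchange takes place in alveoli lined by flat type I cells and cuboidal type II cells. Type II cells make surfactant, a film of phospholipid and surfactant proteins that lowers surface tension, and store it in lamellar bodies before secretion. SFTPB and SFTPC are small hydrophobic proteins that spread the lipid film, whereas SFTPA1 and SFTPD are collectins that bind microbes and LPS. ABCA3 pumps phospholipid into lamellar bodies, and LAMP3 sits in their membrane. Of the type I cell genes, Ager encodes the receptor RAGE, Aqp5 a water channel, Pdpn the membrane glycoprotein podoplanin and Hopx a small homeodomain protein. Large airways themselves hold few alveolar cells, so the level of these genes in a dissected airway can also depend on how much parenchyma was left on it. In such bulk tissue, fewer cells of a type and less RNA per cell cannot be told apart.

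The labels name the tissue as trachea, whereas the study's methods describe airway freed of parenchyma and of the trachea. The alveolar genes were abundant in all 11 libraries. Sftpc alone ranked between 2 and 8 among all genes of a library by FPKM. The 10 genes together took 3.33% to 5.26% of the FPKM total under PBS, 1.60% to 2.52% under OVA/LPS/Vehicle and 1.45% to 3.77% under OVA/LPS/GGsTop. The airway markers were present beside them, with Scgb1a1, the main secretory protein of club cells, at 26145 to 47905 FPKM. Airway and alveolar transcripts thus stood side by side in libraries labelled as trachea.

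Sftpb, Abca3, Aqp5 and Ager are the genes whose level was called lower in OVA/LPS/Vehicle than in PBS mice, and their promoters are shown for that reason. Each is the 250 bases before the transcription start in RefSeq on GRCm38.p6, read on the plus strand, which is the strand of all 4 genes. Capitals mark matches on either strand to CTCAAG (the core of NKX2-1 sites, NKX2-1 being the lung epithelial transcription factor), to TGTTTNC (the forkhead core bound by FOXA factors) or to GGGCGG (the GC box). TATAAA was also searched and is not in these 4 windows.
Sftpb promoter: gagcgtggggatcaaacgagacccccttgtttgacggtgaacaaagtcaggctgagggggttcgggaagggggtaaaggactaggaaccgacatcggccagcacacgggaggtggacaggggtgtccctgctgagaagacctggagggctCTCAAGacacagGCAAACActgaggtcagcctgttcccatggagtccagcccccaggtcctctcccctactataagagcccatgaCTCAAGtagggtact
Abca3 promoter: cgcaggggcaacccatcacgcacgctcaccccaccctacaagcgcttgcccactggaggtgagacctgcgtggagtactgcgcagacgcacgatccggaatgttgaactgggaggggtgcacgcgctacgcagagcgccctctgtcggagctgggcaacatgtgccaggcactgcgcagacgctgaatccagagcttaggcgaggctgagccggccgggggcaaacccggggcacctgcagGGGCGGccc
Aqp5 promoter: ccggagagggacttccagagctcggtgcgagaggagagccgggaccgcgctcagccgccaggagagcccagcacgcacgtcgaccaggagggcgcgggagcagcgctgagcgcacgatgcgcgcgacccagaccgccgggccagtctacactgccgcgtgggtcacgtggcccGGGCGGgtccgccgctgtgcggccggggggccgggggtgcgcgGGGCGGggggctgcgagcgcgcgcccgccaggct
Ager promoter: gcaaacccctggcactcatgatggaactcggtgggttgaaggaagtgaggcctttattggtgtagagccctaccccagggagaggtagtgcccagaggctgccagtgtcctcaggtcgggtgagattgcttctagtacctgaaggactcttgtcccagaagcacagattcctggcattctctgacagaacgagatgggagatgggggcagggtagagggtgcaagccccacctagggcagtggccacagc
They lie at chr6:72304360-72304609 (Sftpb), chr17:24351773-24352022 (Abca3), chr15:99590778-99591027 (Aqp5) and chr17:34597600-34597849 (Ager). The Sftpb promoter holds CTCAAG in 2 places, 100 to 95 and 15 to 10 bases before the start, and the forkhead core on the minus strand 88 to 82 bases before it. The Aqp5 promoter holds 2 GC boxes and that of Abca3 holds 1, while the Ager window holds none of the motifs. Of 32851 RefSeq promoters of the same length, 13.3% hold CTCAAG, 17.8% the forkhead core, 32.7% the GC box and 12.4% TATAAA. The motifs are common, and a match describes letters and not binding. The 4 promoters differ in base composition, from 57.6% GC for Ager and 58.4% for Sftpb to 67.6% for Abca3 and 78.4% for Aqp5. RefSeq entries were matched for 8 of the 10 genes. Sftpc and Sftpd had none.

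Averaged over the 11 libraries and compared per exon length, Sftpc stood at 7149.7 FPKM, and it was above every other gene of the group in every library, by 6.81 to 18.6 times over Sftpb. Sftpb (708 FPKM), Ager (529) and Sftpa1 (526) came next, and their order was not fixed. Sftpb was above Ager in 7 of 11 libraries and Ager above Sftpa1 in 5 of 11. Sftpd (165 FPKM) was below Sftpa1 in every library and above Hopx (116) in 9. Hopx was above Lamp3 (61.5) in all 11, whereas Lamp3, Aqp5 (56.8) and Pdpn (42.7) changed places between libraries. Abca3 was the lowest at 29.2 FPKM, below Pdpn in 10 of 11 libraries. The spread over all libraries was widest for Sftpb, whose highest library was 6.49 times its lowest, and narrowest for Pdpn, at 1.75 times. The values rest on 829 to 240871 fragments a library for the 9 genes whose FPKM gave whole fragments, so counting error is small beside the spread between libraries. Abca3 and Hopx each overlap a gene on the opposite strand (D330041H03Rik and Hopxos), neither of which the file lists, and whether fragments were counted by strand is not given in the sources used here.

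**Figure D1:**
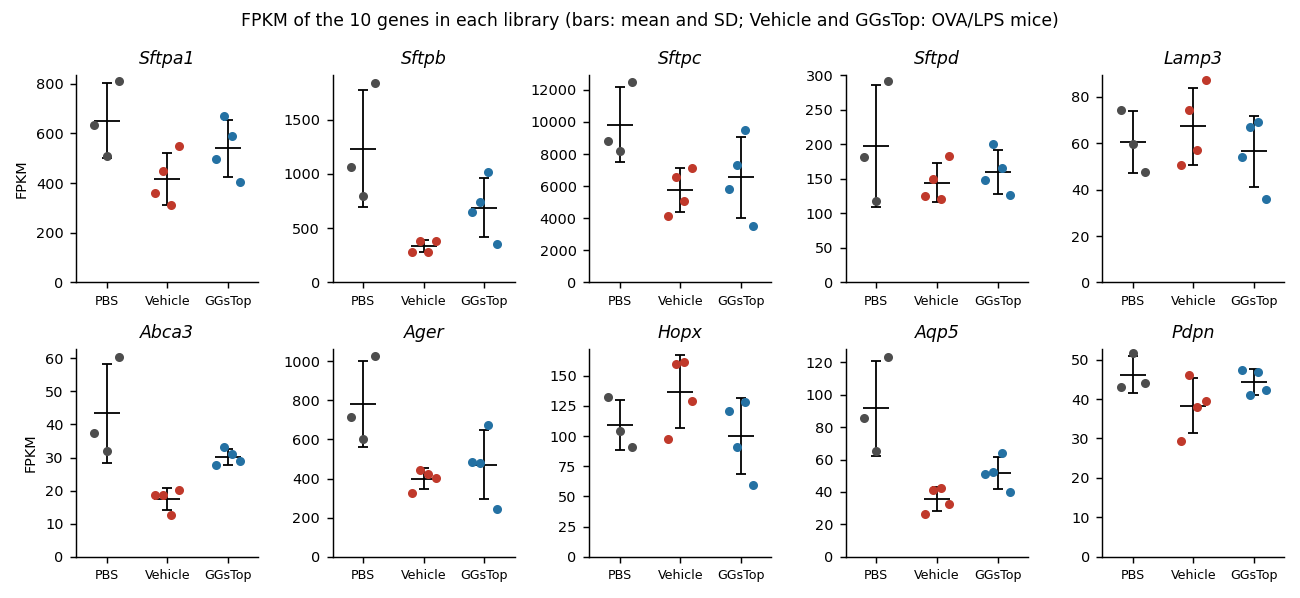
FPKM of each of the 10 genes (linear axes from 0) in the PBS, OVA/LPS/Vehicle (Vehicle) and OVA/LPS/GGsTop (GGsTop) libraries; points are libraries and bars the mean and SD. Sftpb, Sftpc, Abca3, Ager and Aqp5 are higher in all 3 PBS libraries than in any OVA/LPS/Vehicle library, and Abca3 in OVA/LPS/GGsTop lies above every OVA/LPS/Vehicle library.

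The comparison of OVA/LPS/Vehicle with PBS asks how allergen and LPS changed the airway transcriptome. Of the 10 genes, 4 were lower (Sftpb, Abca3, Aqp5 and Ager) and 0 were higher at an adjusted p under 0.05. Over all genes tested 38% were called in this comparison, 22.1% as lower and 15.9% as higher, so a call was common here and the count of 4 sets the 10 genes little apart. Without overlap between the groups, 5 of the 10 were lower (the 4 called genes and Sftpc), against 25.4% of all genes. The median log2 difference of the 10 genes was -0.72, against -0.01 over all genes tested. At the same FPKM total in every library, the calls over all genes shifted from 3096 lower and 2231 higher to 4570 lower and 1232 higher, and Sftpa1, Sftpc and Pdpn were called lower as well, which made 7 of the 10. That scaling moved the median of all genes to -0.15 and that of the 10 genes to -0.89, and it turned the sign of Lamp3. Differences are those of log2(FPKM + 1), fitted with limma across all genes and all 11 libraries and adjusted by the Benjamini-Hochberg method.

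Among the surfactant proteins, Sftpb fell the most. Its level was 1063, 799.8 and 1836 FPKM in the PBS libraries and 283, 381, 285 and 385 FPKM in the OVA/LPS/Vehicle libraries. The groups did not overlap, and even the lowest PBS library stood above the highest OVA/LPS/Vehicle library by more than the whole range of the latter. The log2 difference was -1.81 (SE 0.35, 95% interval -2.57 to -1.05, limma adjusted p = 0.00509), which brought the OVA/LPS/Vehicle level to 0.285 of the PBS level.

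Sftpc, the type II cell gene with the highest level, was 8824, 8176 and 12502 FPKM in the PBS libraries and 4164, 6549, 5089.7 and 7156 FPKM in the OVA/LPS/Vehicle libraries. These groups did not overlap either, but the spread within each was wide against the gap, and the log2 difference of -0.78 (SE 0.36, limma adjusted p = 0.103) did not pass the test. For Sftpa1 the PBS libraries gave 633, 509.7 and 812 FPKM and the OVA/LPS/Vehicle libraries 359.8, 447, 312 and 548 FPKM. Library 78 of the OVA/LPS/Vehicle group lay above PBS 2, and the log2 difference of -0.65 (SE 0.24, limma adjusted p = 0.0515) just missed the threshold. Sftpd, the other collectin, was 182, 118 and 292 FPKM in PBS and 125, 150.2, 121 and 183 FPKM in OVA/LPS/Vehicle libraries. The PBS libraries spanned the whole range of the other group, and the log2 difference was -0.37 (SE 0.27, limma adjusted p = 0.291).

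The lamellar body genes did not move alike. Abca3 was 37.4, 32.1 and 60.5 FPKM in PBS and 18.6, 18.8, 12.7 and 20.1 FPKM in OVA/LPS/Vehicle libraries. It fell by 1.23 on the log2 scale (SE 0.20, limma adjusted p = 0.00375), with no overlap between the groups. Lamp3 was 74.2, 59.6 and 47.6 FPKM in PBS and 50.7, 74.2, 57.1 and 87.1 FPKM in OVA/LPS/Vehicle libraries. Its groups lay over each other, with a log2 difference of 0.14 (SE 0.25, 95% interval -0.41 to 0.69, limma adjusted p = 0.669). LAMP3 is also made by mature dendritic cells, and of the 6 markers of these cells on the list used here the sum was 37.9 to 57.5 FPKM in PBS, 28.1 to 39.5 in OVA/LPS/Vehicle and 32.9 to 41.8 in OVA/LPS/GGsTop libraries. Of the 5 tested, 3 had negative and 2 positive log2 differences against PBS in both OVA/LPS groups, and Ccr7 and Relb were called lower in both. Over all genes, 22.1% were called lower in OVA/LPS/Vehicle and 0.821% in OVA/LPS/GGsTop. The part of these cells in the Lamp3 level was not tested.

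Among the type I cell genes, Aqp5 and Ager fell, and Hopx and Pdpn did not pass the test. Aqp5 was 85.8, 65.5 and 123 FPKM in PBS and 26.4, 41.1, 42.6 and 32.3 FPKM in OVA/LPS/Vehicle libraries. All 4 of the latter were below the lowest PBS library, and the log2 difference was -1.32 (SE 0.23, limma adjusted p = 0.00409). Ager was 714, 600.5 and 1024 FPKM in PBS and 325, 446, 422 and 403 FPKM in OVA/LPS/Vehicle libraries. The groups were apart, and the log2 difference was -0.94 (SE 0.30, limma adjusted p = 0.0315). This call was the least firm of the 4. It was lost without any single PBS 1, PBS 3 or OVA/LPS/Vehicle library (log2 difference -0.72 without PBS 3) and after the correction for GC content described below.

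Hopx was 132, 104 and 91.1 FPKM in PBS and 97.4, 159, 161 and 129 FPKM in OVA/LPS/Vehicle libraries. Its log2 difference was positive, at 0.31 (SE 0.26, limma adjusted p = 0.358), with overlap. Hopx is also expressed by heart muscle, and the sum of 6 heart muscle markers was 95.3, 1726 and 136 FPKM in PBS 1 to 3, against 838 to 1348 FPKM in OVA/LPS/Vehicle libraries. In OVA/LPS/GGsTop 1 to 4 the heart muscle sum was 875, 2039, 557 and 2350 FPKM. Hopx in these 4 libraries was 121, 91.2, 128 and 59.8 FPKM. The part of heart muscle in the Hopx level was not tested. Pdpn was 42.9, 51.6 and 44.1 FPKM in PBS and 29.4, 46.2, 38.1 and 39.5 FPKM in OVA/LPS/Vehicle libraries, with a log2 difference of -0.28 (SE 0.14, limma adjusted p = 0.136). Lymphatic endothelium and mesothelium also make podoplanin. The sum of 5 lymphatic markers was 73.7 to 84.7 FPKM in PBS and 50.3 to 78.5 in OVA/LPS/Vehicle libraries, and that of 5 mesothelial markers 18.3 to 67.5 and 30.1 to 45.5 FPKM. The part of either in the Pdpn level was not tested.

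**Figure D2:**
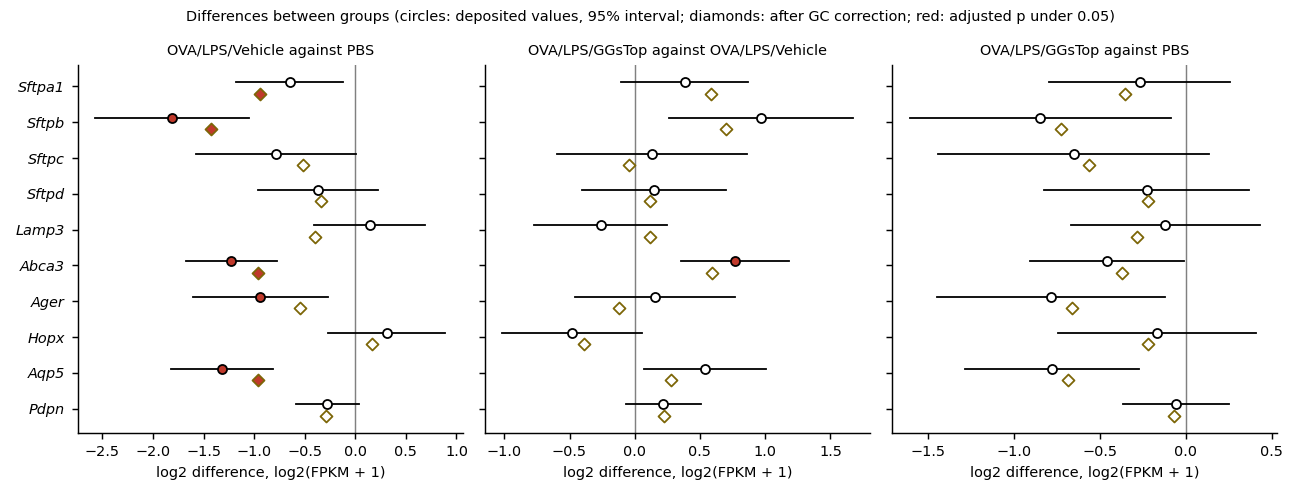
Differences in log2(FPKM + 1) of the 10 genes in the 3 comparisons; circles with lines are the limma estimates and their 95% intervals, diamonds the estimates after correction for GC content, and red marks an adjusted p under 0.05. In OVA/LPS/Vehicle against PBS, Sftpb, Abca3, Aqp5 and Ager are red without correction and Sftpa1, Sftpb, Abca3 and Aqp5 with it; Abca3 alone is red where the 2 OVA/LPS groups are compared, and none is where OVA/LPS/GGsTop is set against PBS.

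OVA/LPS/GGsTop was compared with OVA/LPS/Vehicle to see what the inhibitor changed. Abca3 was the single gene of the 10 that passed, as higher. Of all genes tested 8.71% were called, 6.9% as higher and 1.81% as lower, so 1 of 10 is near the background. Rescaling to the same median FPKM changed 254 lower and 966 higher genes to 354 and 344 and left none of the 10 called. The median log2 difference of the 10 genes was 0.19, against 0.03 over all genes. Abca3 was 27.7, 33.2, 31.1 and 28.9 FPKM in the OVA/LPS/GGsTop libraries, all above the OVA/LPS/Vehicle range of 12.7 to 20.1 FPKM. Over all genes, 17.3% were higher without overlap. The spread of Abca3 within OVA/LPS/GGsTop was the smallest of the 3 groups (mean 30.2 FPKM, SD 2.41, n = 4). The log2 difference was 0.77 (SE 0.19, 95% interval 0.35 to 1.19, limma adjusted p = 0.0350), a level 1.70 times that of OVA/LPS/Vehicle. The adjusted p rose above the threshold without any single OVA/LPS/Vehicle library and without OVA/LPS/GGsTop 1, 2 or 3 (0.0540 to 0.106), and after GC correction (log2 difference 0.59, limma adjusted p = 0.0641).

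Sftpb had the largest log2 difference between these groups. It was 645, 742, 1014 and 357 FPKM in OVA/LPS/GGsTop libraries, of which 3 were above the highest OVA/LPS/Vehicle library (385 FPKM) and OVA/LPS/GGsTop 4 was inside that group's range. The log2 difference was 0.97 (SE 0.32, 95% interval 0.26 to 1.67, limma adjusted p = 0.0770). Without OVA/LPS/GGsTop 4 it was 1.25 (limma adjusted p = 0.0330), and without PBS 3, which enters only through the shared spread, the adjusted p was 0.0347. Aqp5 was 50.9, 52.1, 64.1 and 40.2 FPKM in OVA/LPS/GGsTop, again with OVA/LPS/GGsTop 4 alone inside the range of OVA/LPS/Vehicle. Its log2 difference was 0.54 (SE 0.21, limma adjusted p = 0.120).

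The other 7 genes had adjusted p between 0.204 and 0.818. Sftpc was 5805, 7323, 9516 and 3541 FPKM in OVA/LPS/GGsTop libraries, a range that held all of the OVA/LPS/Vehicle values, with a log2 difference of 0.13 (95% interval -0.60 to 0.86). Ager, at 485, 479.7, 673 and 243 FPKM, likewise spanned the OVA/LPS/Vehicle group (log2 difference 0.16, 95% interval -0.46 to 0.77). Sftpa1 was 496, 670.4, 589.6 and 406 FPKM (log2 difference 0.38, SE 0.22), and Sftpd was 148, 200.2, 165 and 126 FPKM (log2 difference 0.14, SE 0.25). Hopx and Lamp3 had negative log2 differences, of -0.48 (SE 0.24) and -0.26 (SE 0.23). In both, OVA/LPS/GGsTop 4 was the lowest of all 11 libraries, at 59.8 FPKM for Hopx and 35.8 FPKM for Lamp3. The intervals for Sftpc and Ager reach well past a log2 difference of 0.5 on the higher side, so changes of that size are not excluded for these genes.

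OVA/LPS/GGsTop was also set against PBS, a comparison that shares its PBS libraries with the first and its OVA/LPS/GGsTop libraries with the second. None of the 10 genes passed, where 2.88% of all genes did (0.821% as lower and 2.06% as higher), and 4 of the 10 had an unadjusted p under 0.05, against 20.5% of all genes. The 115 lower and 288 higher genes became 243 and 250 at the same FPKM total. All 10 log2 differences were negative, against 49% of all genes, with a median of -0.36. Aqp5 came closest, since every OVA/LPS/GGsTop library was below the lowest PBS library (65.5 FPKM), as held for 7.54% of all genes, with a log2 difference of -0.78 (SE 0.23, limma adjusted p = 0.0910). Without PBS 2 it was -0.99 and passed (limma adjusted p = 0.0233). Sftpb (-0.85, SE 0.35, limma adjusted p = 0.202), Ager (-0.78, SE 0.30, limma adjusted p = 0.179), Sftpc (-0.65, SE 0.36, limma adjusted p = 0.328) and Abca3 (-0.46, SE 0.20, limma adjusted p = 0.236) overlapped between the groups. Sftpa1, Sftpd, Hopx, Lamp3 and Pdpn lay between -0.27 and -0.06. The 4 OVA/LPS/GGsTop libraries differed widely among themselves, from 4881 FPKM for the sum of the 10 genes in OVA/LPS/GGsTop 4 to 12297 FPKM in OVA/LPS/GGsTop 3.

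Sftpc took 72.6% to 79.7% of the summed FPKM of the 10 genes in each library. Each gene was also divided by Sftpc of the same library. Sftpb then stood at 120.4, 97.8 and 147 FPKM per 1000 FPKM of Sftpc in PBS, at 68.0, 58.2, 55.99 and 53.8 in OVA/LPS/Vehicle, and at 111, 101, 107 and 101 in OVA/LPS/GGsTop. The OVA/LPS/Vehicle libraries were apart from and below both other groups, and OVA/LPS/GGsTop 4, the library with the least Sftpb of its group, lay beside the other 3 by this ratio. Of all genes tested, 0.493% had a ratio to Sftpc that was lower in OVA/LPS/Vehicle than in PBS with no overlap (46.9% a higher one), and 0.564% had a ratio that was higher in OVA/LPS/GGsTop than in OVA/LPS/Vehicle with no overlap. The ratios are descriptions with no test, and they move with Sftpc as much as with the gene named.

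Lamp3 had the opposite pattern, with 12.2, 11.3, 11.2 and 12.2 FPKM per 1000 FPKM of Sftpc in OVA/LPS/Vehicle against 3.81 to 8.40 in PBS and 7.27 to 10.1 in OVA/LPS/GGsTop. OVA/LPS/Vehicle was apart from both groups here too, as the higher, and 0.614% of all genes had a ratio that was lower in OVA/LPS/GGsTop than in OVA/LPS/Vehicle with no overlap. The ratios were not corrected for GC content, which is 38.7% for Lamp3 and 54.8% for Sftpc. With the correction described below, log2 differences of OVA/LPS/Vehicle against PBS were -0.40 for Lamp3 and -0.52 for Sftpc. Those of OVA/LPS/GGsTop against OVA/LPS/Vehicle were 0.12 and -0.043. Hopx per 1000 FPKM of Sftpc was 18.0 to 31.7 in OVA/LPS/Vehicle, above the PBS range of 7.28 to 15.0. A ratio higher in OVA/LPS/Vehicle than in PBS without overlap was common, at 46.9% of all genes, so neither Hopx nor Lamp3 is set apart by it. Ager per 1000 FPKM of Sftpc overlapped in all comparisons, with means of 78.7 (SD 4.61, n = 3) in PBS, 71.4 (SD 11.8, n = 4) in OVA/LPS/Vehicle and 72.1 (SD 7.89, n = 4) in OVA/LPS/GGsTop. The levels of this type I cell gene and of Sftpc went up and down together, although they come from different alveolar cells.

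**Figure D3:**
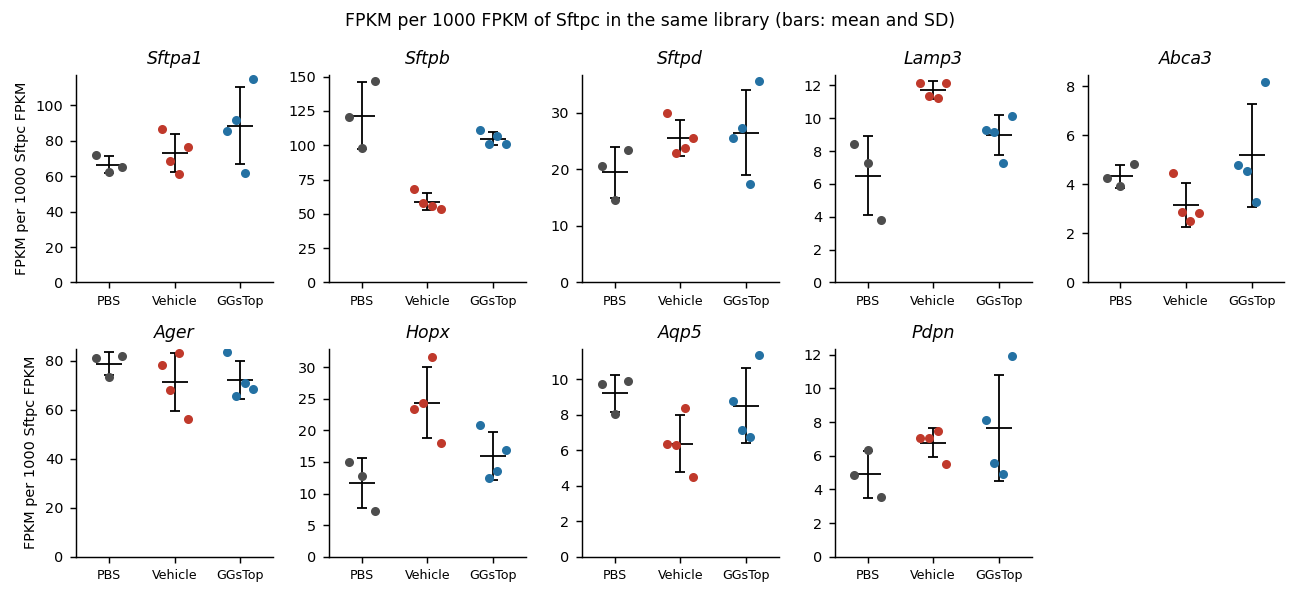
FPKM of 9 genes per 1000 FPKM of Sftpc in the same library (linear axes from 0); points are libraries and bars the mean and SD. Sftpb in OVA/LPS/Vehicle (53.8 to 68.0) lies below both other groups and Lamp3 (11.2 to 12.2) above them, while Ager overlaps in all 3 groups. The ratios are not corrected for GC content.

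Over the 11 libraries, the Pearson correlation of log2(FPKM + 1) between the 10 genes had a median of 0.59 for the 45 pairs, and 17 pairs were above 0.7. These are descriptions over libraries that differ in tissue markers, depth and, as given below, in how levels change with GC content. Sftpc and Ager had the highest value, 0.95, and 0.92 after the group means were removed. Sftpb went with Aqp5 (0.94) and Abca3 (0.91). Hopx had negative values for 5 of its 9 pairs, and its closest partner was Lamp3 at 0.73. With the group means removed, Abca3 alone was negative with Hopx (-0.30), and Ager (0.68) and Sftpc (0.58) were positive. The non-member genes most like Sftpc across the 11 libraries were Dram1 (0.98), Napsa, the type II cell aspartic protease (0.97), Mfap4 (0.97), Atp6v0e (0.96) and Lpcat1, which makes surfactant phosphatidylcholine (0.95). Those most like Ager were Gnb1 (0.99), App (0.98), Mettl24 (0.98), Upp1 (0.98) and Sept4 (0.98). Arf1 (0.99), Bcl7b (0.98), Tnfrsf1a (0.98), Krt7 (0.98) and Rela (0.98) were most like Aqp5. Pdpn had less close neighbours, Tgfa (0.93), Plpp3 (0.90), Cryl1 (0.90), Marveld2 (0.89) and Adh1 (0.89).

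The size of the differences followed the base composition of the transcripts. The 10 genes run from 38.7% GC (Lamp3) to 64.0% GC (Aqp5) in their longest transcript. In OVA/LPS/Vehicle against PBS the Spearman correlation of GC content with the log2 difference was -0.84 over the 10 genes and -0.59 over 13987 genes. In OVA/LPS/GGsTop against OVA/LPS/Vehicle it was 0.56 over the 10 genes and 0.62 over all. For OVA/LPS/GGsTop against PBS it was -0.82 over the 10 genes and -0.34 over all. Lamp3 (38.7% GC) and Hopx (46.4% GC) had the positive differences in the first comparison and the negative ones in the second. Sftpa1, at 44.0% GC between them, went the other way in both (-0.65 and 0.38). The log2 value of a gene changed with its GC content, per 10 points, by -0.26 to -0.19 under OVA/LPS/Vehicle, by 0.05 to 0.11 under OVA/LPS/GGsTop, and by 0.06, 0.05 and 0.53 in PBS 1 to 3, so that PBS 3 stood apart from its group. The part of GC content in the differences of single genes was not tested beyond the correction given next.

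After a smooth function of GC content was taken out of each library, 21.5% of all genes were called in OVA/LPS/Vehicle against PBS (13.3% as lower). Sftpb (-1.43, limma adjusted p = 0.0151), Abca3 (-0.96, limma adjusted p = 0.00852) and Aqp5 (-0.96, limma adjusted p = 0.0106) remained lower on the log2 scale. Sftpa1 was then called as well (-0.94, limma adjusted p = 0.0315), and Ager was no longer called (-0.54, limma adjusted p = 0.181). Lamp3 turned from 0.14 to -0.40. When PBS 3 was also left out, Abca3 and Aqp5 were still called and Sftpb was not (-1.23, limma adjusted p = 0.0661). In OVA/LPS/GGsTop against OVA/LPS/Vehicle 2.24% of all genes were called after the correction, and in OVA/LPS/GGsTop against PBS 4.35% were. None of the 10 genes was called in either.

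**Figure D4:**
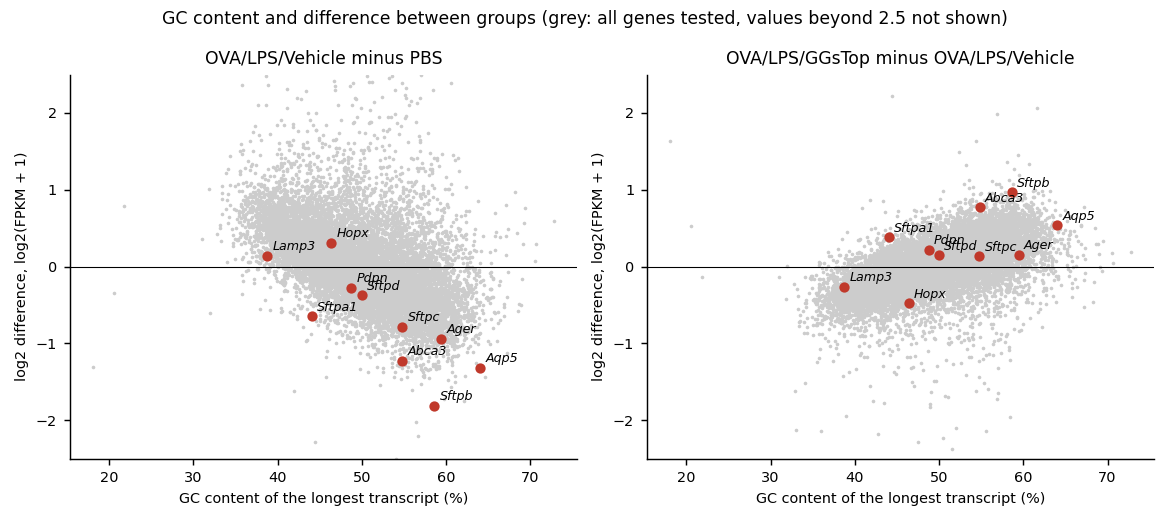
Log2 difference in log2(FPKM + 1) against GC content of the longest transcript (%), for all genes tested (grey) and the 10 genes (red, named), in OVA/LPS/Vehicle minus PBS and OVA/LPS/GGsTop minus OVA/LPS/Vehicle; values beyond 2.5 are not shown. The cloud of all genes slopes down on the left (Spearman -0.59) and up on the right (0.62), and the 10 genes lie along it, with Sftpb and Abca3 at its outer edge in both.

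Other genes of the same cells were counted from lists for type II and type I cells. Of 24 further type II cell and surfactant metabolism genes, 6 were lower and 1 was higher in OVA/LPS/Vehicle than in PBS, with a median log2 difference of -0.27. These counts are near the 22.1% of all genes called lower and under the 15.9% called higher. Lgi3, a secreted protein of type II cells, fell by 1.43 on the log2 scale (limma adjusted p = 0.00439). Elovl1, an elongase of long fatty acids, fell by 1.33 (limma adjusted p = 0.00479), the phosphate carrier Slc34a2 fell by 0.84 (limma adjusted p = 0.0223), and Lpcat1 fell by 0.74 (limma adjusted p = 0.0289, and 0.0898 after GC correction). Acsl4, the gene that was higher (0.60, limma adjusted p = 0.0352), activates arachidonic acid, was singled out after its value was seen, and was not called after GC correction. In OVA/LPS/GGsTop against OVA/LPS/Vehicle, Chka, the choline kinase that starts phosphatidylcholine synthesis, was the single gene of this list to pass, as higher (0.46, limma adjusted p = 0.0437), and it held in 3 of 11 fits without 1 library and not after GC correction (0.43, limma adjusted p = 0.0759). Lgi3 (0.84, limma adjusted p = 0.0508), Csf2ra (0.86, limma adjusted p = 0.0766) and Elovl1 (0.65, limma adjusted p = 0.0908) did not pass. Against PBS, 0 of the 24 passed in OVA/LPS/GGsTop by limma, with 5 at an unadjusted p under 0.05; Elovl1 (-0.68), Adgrf5 (-0.63), Lgi3 (-0.59) and Dram1 (-0.49) had the smallest p.

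Of 16 further type I cell genes, 8 were lower and 0 higher in OVA/LPS/Vehicle than in PBS, with a median log2 difference of -0.72. Over all genes tested, 22.1% were called lower and 15.9% higher, with a median of -0.01. The proteoglycan gene Spock2 fell by 1.36 on the log2 scale (limma adjusted p = 0.00365), Gprc5a fell by 1.14 (limma adjusted p = 0.00415), Col4a3, a chain of basement membrane collagen, fell by 0.80 (limma adjusted p = 0.0169) and the membrane protein gene Emp2 fell by 0.77 (limma adjusted p = 0.0185). In OVA/LPS/GGsTop, Cav2, a caveolin, was lower than in OVA/LPS/Vehicle (-0.77, limma adjusted p = 0.0440), a call that was lost after GC correction (-0.37, limma adjusted p = 0.212) and held in 3 of 11 fits without 1 library. There Spock2 (0.68), Gprc5a (0.52) and Timp3 (0.48) did not pass. Akap5 was lower than in PBS (-1.07, limma adjusted p = 0.0463, called in 2 of 11 fits without 1 library), and Ndnf (-0.62), Spock2 (-0.68) and Gprc5a (-0.62) were not called. After GC correction 6 of the 16 were called lower in OVA/LPS/Vehicle against PBS, where 13.3% of all genes were.

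Of 13 transcription factors of the lung epithelium, 2 were lower and 2 higher in OVA/LPS/Vehicle than in PBS, no more than over all genes (22.1% and 15.9%). Etv5, which maintains type II cells, fell by 1.31 on the log2 scale (limma adjusted p = 0.00337), and Gata6 fell by 0.41 (limma adjusted p = 0.0133), a call lost after GC correction (-0.13, limma adjusted p = 0.351). Klf5 (0.98, limma adjusted p = 0.0121) and Foxa1 (0.45, limma adjusted p = 0.0437, called in 3 of 11 fits without 1 library) were higher. Nkx2-1, which drives the surfactant genes, was 60.6 to 98.1 FPKM in PBS, 51.6 to 69.2 in OVA/LPS/Vehicle and 50.3 to 95.7 in OVA/LPS/GGsTop libraries and was not called. In OVA/LPS/GGsTop against OVA/LPS/Vehicle none of the 13 passed by limma, with 2 at an unadjusted p under 0.05, and Etv5 (0.56), Wwtr1 (-0.30), Gata6 (0.20) and Klf5 (-0.41) had the smallest p. Etv5 was lower in OVA/LPS/GGsTop than in PBS (-0.76, limma adjusted p = 0.0496, called in 2 of 11 fits without 1 library), where Foxa1 (0.61), Grhl2 (0.48) and Wwtr1 (-0.27) did not pass.

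The libraries with the lowest and highest sums of the 10 genes in a group also differed in markers of other tissues. OVA/LPS/GGsTop 4, which had the lowest sum (4881 FPKM), had the highest sums of 6 ciliated cell markers (532 FPKM), 5 basal cell markers (80.2 FPKM) and 6 heart muscle markers (2350.4 FPKM) of all libraries. OVA/LPS/GGsTop 3, with the highest sum of its group, had the lowest basal sum of all (1.06 FPKM) and the lowest heart muscle sum of its group (557 FPKM). PBS 2, the lowest of the PBS group, had 35.1 FPKM of basal and 1726 FPKM of heart muscle markers, against 3.50 and 3.74 FPKM and 95.3 and 136 FPKM in PBS 1 and 3. Other libraries followed this order only in part. OVA/LPS/GGsTop 2 had more of the 10 genes than OVA/LPS/GGsTop 1 (9699 against 7879 FPKM) and also more basal (18.1 against 5.64 FPKM) and heart muscle markers (2039 against 875 FPKM). In OVA/LPS/Vehicle libraries the basal sum was 26.0 to 42.1 FPKM, highest in library 34, whose sum of the 10 genes was 8314 FPKM. It was lowest in library 78, which had the highest sum of the 10 genes in its group (8983 FPKM). The heart muscle sum of library 78, 1249 FPKM, lay inside the group's range of 838 to 1348 FPKM. Of the ciliated markers, 4 of 6 were higher in OVA/LPS/Vehicle than in PBS, where 15.9% of all genes were called higher. The count was 3 of 6 in OVA/LPS/GGsTop against PBS, where 2.06% of all genes were called higher. The keratins Krt15 and Krt5 led the basal list at 0.18 to 41.0 and 0.03 to 33.1 FPKM, and Myl7, Actc1 and Myh6 led the heart muscle list.

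Markers of cells that surround the alveoli were counted too. The sum of 6 lung capillary markers was 858 to 1740.1 FPKM in PBS, 604 to 777 in OVA/LPS/Vehicle and 467 to 1081 in OVA/LPS/GGsTop libraries, and 3 of the 6 (Plvap, Cldn5 and Aplnr) were called lower in OVA/LPS/Vehicle against PBS, where 22.1% of all genes were. After GC correction 0 of the 6 were called by limma. The sum of 6 lung fibroblast markers, led by Npnt and Limch1, was 312 to 348 FPKM in PBS, 171 to 269.5 in OVA/LPS/Vehicle and 156 to 329 in OVA/LPS/GGsTop libraries, with 2 called lower in OVA/LPS/Vehicle. Within a group the sums kept the order of the alveolar genes only in part. In PBS the capillary sum kept it, at 858, 1253 and 1740.1 FPKM in PBS 2, 1 and 3. OVA/LPS/GGsTop 4 had the lowest and OVA/LPS/GGsTop 3 the highest capillary and fibroblast sums of their group, as for the 10 genes. Elsewhere the order differed. OVA/LPS/Vehicle 78, with the highest sum of the 10 genes in its group (8983 FPKM), had the lowest capillary sum (604 FPKM), and PBS 3, the highest for the 10 genes (16833 FPKM), had the lowest fibroblast sum of its group (312 FPKM). The part of tissue composition in the alveolar differences was not tested.

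**Figure D5:**
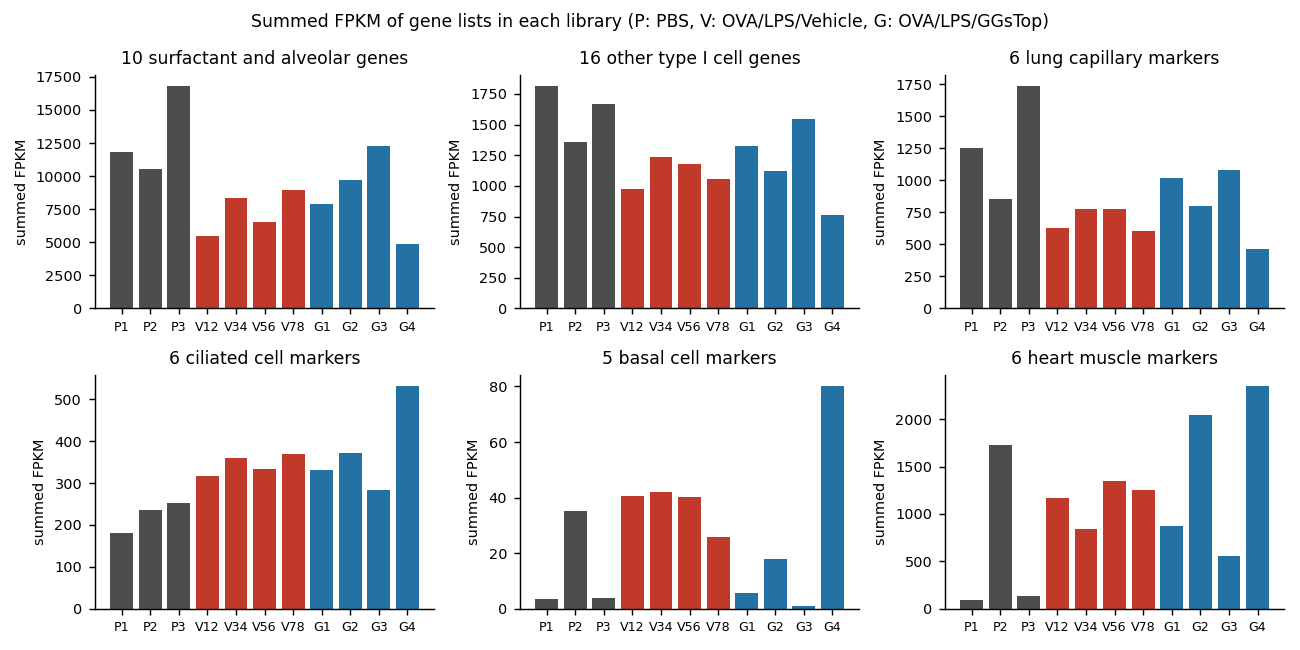
Summed FPKM of the 10 genes, of 16 other type I cell genes and of 4 marker lists in each library (bars from 0; P is PBS, V is OVA/LPS/Vehicle, G is OVA/LPS/GGsTop). OVA/LPS/GGsTop 4 has the lowest sum of the 10 genes (4881 FPKM) and of capillary markers (467 FPKM) and the highest sums of ciliated (532), basal (80.2) and heart muscle (2350.4) markers.

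The other lists were as follows. Alveolar macrophage markers summed to 224 to 261 FPKM in PBS and to 393 to 1143 FPKM in OVA/LPS/Vehicle libraries, led by Chil3, which rises in allergic lungs, at 44.7 to 72.7 FPKM in PBS and 131 to 735 FPKM in OVA/LPS/Vehicle. The list did not move as a whole, since 4 of its 8 genes had negative and 4 positive log2 differences (median -0.04), with Chil3 called higher and Fabp1 lower. Gland markers, which include cells that also use Aqp5, summed to 237 to 492 FPKM in PBS, 582 to 1346 in OVA/LPS/Vehicle and 330.3 to 1092 in OVA/LPS/GGsTop. Of the 7 tested, 4 were higher and 1, Lyz1, lower in OVA/LPS/Vehicle than in PBS, against 15.9% and 22.1% of all genes. The part of glands in the Aqp5 level was not tested. Club cell markers summed to 32888 to 39218 FPKM in PBS and 37271 to 57215 FPKM in OVA/LPS/Vehicle. The part of airway cells in the levels of Sftpb and the other surfactant genes was not tested. Skeletal muscle markers summed to 6.48 to 133 FPKM over all libraries. Of the thyroid markers only thyroglobulin (Tg) is given, at 0.30 to 0.83 FPKM in PBS, 0.26 to 303 FPKM in OVA/LPS/Vehicle (median 128) and 0.15 to 1.44 FPKM in OVA/LPS/GGsTop libraries. Library 78, the lowest of the OVA/LPS/Vehicle group for Tg, had the highest Sftpc and Sftpa1 of its group.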

How the data were processed

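RNA was poly-A selected and sequenced. For each of the 11 libraries the authors deposited 1 column of FPKM, which counts fragments relative to exon length and library total. Per the submitters' processing notes, cutadapt 1.15, HISAT2 2.0.5, HTSeq 0.9.1 and the build mm39 were used, and strand settings and annotation are not given in the sources used here. Names, exon lengths and GC content came from GENCODE M21 (GRCm38), which matched 21846 of 21899 identifiers. FPKM times exon length gave whole fragments (within 0.05) in every library for 21427 genes (97.8%), and the totals implied were 14513136 to 18632382 fragments a library.

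Genes averaging 0.5 FPKM or more were tested as log2(FPKM + 1), which understates changes of low genes, with limma 3.58.1 in R 4.3.3 (mean-variance trend, all libraries in a single fit, group only, two-sided, Benjamini-Hochberg, adjusted p under 0.05). The study used a count method, and limma was used here because the deposited unit is FPKM. Limma's fit was tested on simulated data. The 10 genes and all lists (24 type II, 16 type I and 13 regulator genes, and 13 lists of other cells and tissues) were chosen with earlier results of these data known. Named beside them are the 4 genes of smallest p per epithelial list and comparison, up to 3 genes of highest mean FPKM per other list, and the 5 genes most correlated with each of Sftpc, Ager, Aqp5 and Pdpn. Acsl4, Nkx2-1, Ccr7, Relb, Aplnr and Fabp1 were named after their values were seen. A marker gene of another tissue is not reported here.

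GC correction subtracted a natural spline (5 degrees of freedom) per library, keeping the library mean, and could be made for 13987 genes. PBS and OVA/LPS/GGsTop libraries share the numbers 1 to 3. Their deviations from the group means correlated at 0.16, 0.62 and 0.40 for equal numbers over the genes tested, all above 0.1, so a paired fit was run. Unequal numbers gave -0.64 (PBS 2 with OVA/LPS/GGsTop 3) to 0.42 (PBS 1 with OVA/LPS/GGsTop 3). PBS 1 was thus closer to OVA/LPS/GGsTop 3 than to OVA/LPS/GGsTop 1. Alternatives were other pseudocounts, filters, scalings, weights, fits, and each library left out. The GC correction without PBS 3 and the unpaired fit of PBS 1 to 3 and OVA/LPS/GGsTop 1 to 3 were chosen after the data had been seen. Tables and plots used matplotlib 3.10.9, numpy 2.4.6 and pandas 2.3.3 under Python 3.11.15.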

Additional observations from a re-analysis of the deposited data

Results flagged for a closer look

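The summed FPKM of the 5 basal cell markers was 26.0 in OVA/LPS/Vehicle library 78, far below the 40.2 to 42.1 FPKM of the other 3 libraries of the group. The gap was 0.881 of the group's range, above the 95% critical value of Dixon's test for 4 libraries. It was the only 1 of 72 groups of values that passed this limit, and chance alone passes it in about 5% of groups.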

How the results depend on the processing

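Over the alternatives, Abca3 and Aqp5 were called lower in OVA/LPS/Vehicle than in PBS in all 21, Sftpb in 20 and Ager in 12. The count of the 10 genes called was 4 in this comparison, 7 at the same FPKM total, 2 with GC correction without PBS 3, and 3 to 6 when single libraries were left out. Between the OVA/LPS groups it was 1, with 2 at the same FPKM total, 0 at the same median FPKM, 3 with array weights (Abca3, Sftpb and Aqp5), 2 in a fit of only these groups, 0 with GC correction and 0 to 2 without single libraries. Between OVA/LPS/GGsTop and PBS it was 0, with 1 under array weights (Aqp5) and 0 to 1 without single libraries. The replicate block that paired PBS and OVA/LPS/GGsTop by number gave 0 of the 10 genes, as did the block with GC correction, so it changed no call. Over all genes the calls of the first comparison ran from 735 to 7916 (5327 as reported, 3001 with GC correction, 3064 without PBS 3, 735 with both). Those of the second ran from 24 without OVA/LPS/GGsTop 1 to 5214 with array weights (1220 as reported, 2181 at the same total, 698 at the same median, 3525 for these groups alone, 313 with GC correction, 549 with GC correction and no PBS 3). Those of the third ran from 14 for libraries 1 to 3 of each group without pairing to 2557 with array weights (403 as reported, 208 without filter, 39 for these groups alone, 609 with GC correction, 62 with the block, 52 with GC correction and no PBS 3, and 29 to 1597 without single libraries). Signs turned only for differences that did not pass. In OVA/LPS/Vehicle against PBS, Lamp3 was -0.031 at the same FPKM total, -0.40 with GC correction and -0.37 with that and no PBS 3, and -0.016 to 0.30 without single libraries. In OVA/LPS/GGsTop against OVA/LPS/Vehicle, GC correction with or without PBS 3 gave -0.043 for Sftpc, 0.12 for Lamp3 and -0.12 for Ager, and leaving out libraries gave -0.078 to 0.40 for Sftpc and -0.046 to 0.44 for Ager. Between OVA/LPS/GGsTop and PBS, leaving out libraries gave -0.54 to 0.10 for Sftpd, -0.28 to 0.081 for Lamp3, -0.31 to 0.057 for Hopx and -0.11 to 0.023 for Pdpn. There Pdpn was 0.039 with array weights, Lamp3 was 0.081 and Hopx 0.057 with the block and in the fit of the same libraries without it, Hopx was 0.0035 with block and GC correction, and Sftpd was 0.10 with GC correction without PBS 3. The cause was not tested. Of all values of the 10 genes under alternatives, 597 kept direction and side of the threshold, 19 lost and 19 gained a call, and 25 turned sign. With 3 or 4 libraries a group, differences inside the intervals given are not excluded.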
